A study of Mus musculus with 6 samples.

Results

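The DDX and DHX RNA helicases were followed in RAW264.7 cells given molybdenum disulfide (MoS2) and in RAW264.7 cells given phosphate-buffered saline (PBS). Members were the protein-coding genes of GENCODE M21 whose symbol begins with Ddx or Dhx and a number. Ddx3y, the Y-linked copy of Ddx3x, and the cytosolic sensors of viral RNA that carry such names were left out, 3 genes in all. This gave 50 of the 55401 genes in the count table, 35 named Ddx and 15 named Dhx. Of these, 48 were among the 12972 genes that passed a filter on low counts and were tested.

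DEAD-box (DDX) and DEAH-box (DHX) proteins bind RNA and use ATP to open short duplexes, to move along a strand or to strip proteins from RNA. They take their names from a run of amino acids in the ATP-binding core, which is written out below for 4 pairs of relatives. Members act at nearly every step of RNA metabolism: rRNA processing in the nucleolus, splicing, export through the nuclear pore, translation and decay. In macrophages, RNA helicases are also known as regulators of cytokine transcripts and of the response to foreign nucleic acid.

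RAW264.7 is a mouse macrophage-like line, labelled wild type in all samples and grown in DMEM with fetal bovine serum and antibiotics. The MoS2 group held 3 libraries from cells given 6.25 µg/ml, and the PBS group held 3 libraries. The sources used here do not give the length of the treatment. Nothing in the labels says that replicates came from separate cultures, so the p-values rest on the spread among these libraries, and that spread may be technical. As a virus-transformed line it is limited as a model of primary macrophages.

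Total counts per library were 15767618 to 18412762 in the MoS2 group and 17008020 to 17695883 in the PBS group. The 10 most abundant genes took 19.2 ± 0.335% of the counts in MoS2 libraries and 5.41 ± 0.202% in PBS libraries (SD, n = 3 each). Cytosolic ribosomal protein genes took 10.5 ± 0.413% in MoS2 libraries and 5.97 ± 0.447% in PBS libraries. Because of such shifts, counts were scaled with TMM factors, which set the bulk of genes to no change, and levels are given as CPM, the counts of a gene per 1000000 counts of its library after those factors. Scaled instead by library totals alone, the median of all tested genes moved by -0.77 on the log2 scale, so values with library totals are given beside those with TMM scaling wherever the direction or the call depends on it. All 10 macrophage markers had counts, and 9 of them passed the filter on low counts. The levels of the 10 markers summed to 5196 to 5450 CPM in MoS2 libraries and 7657 to 7836 CPM in PBS libraries. Markers of fibroblasts, epithelium, T cells, B cells and endothelium, summed for each cell type separately, reached at most 0.878 CPM in any library. The part of these shifts in the results was not tested.

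With TMM scaling the helicase genes shifted in both directions, and several of those most abundant in PBS cells were among the largest falls. Ddx6, Ddx17, Dhx37, Ddx42, Ddx59, Dhx9 and Ddx3x were lower in MoS2 cells at least 2-fold, whereas Ddx47, Ddx20 and Ddx50 were higher at least 2-fold. In edgeR's quasi-likelihood test with Benjamini-Hochberg adjustment over all tested genes, 42 of the 48 tested members passed an adjusted p of 0.05, against 80.7% of all tested genes. With TMM scaling 18 members were higher and 24 lower, but with library totals 3 were higher and 39 lower, again 42 in all, against 85.7% of all tested genes. The 24 members lower with TMM scaling were also called lower with library totals. So were the 6 members not called with TMM scaling, at -0.92 for Dhx29 to -0.59 for Ddx31. Among all tested genes, 38.3% were higher and 42.4% lower with TMM scaling, and 18.0% were higher and 67.7% lower with library totals. The median log2 fold change, MoS2 over PBS, was -0.19 for tested members and -0.08 for all tested genes. With library totals it was -0.96 for members and -0.85 for all tested genes.

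With TMM scaling, 20.8% of tested members passed the test with a change of at least 2-fold, against 43.2% of all tested genes, but with library totals the shares were equal, at 52.1% of tested members and 52.1% of all tested genes. The 3 members higher and 7 lower at this size with TMM scaling stand beside 19.5% and 23.7% of all tested genes. With TMM scaling the members' log2 fold changes ran between -1.88 and 1.90, and those of all tested genes between -10.31 and 11.80. With library totals they ran between -2.65 and 1.13 for members and between -10.64 and 11.35 for all tested genes. A range widens with the number of genes it covers, so those of members and of all tested genes are not directly comparable. In 45 of the 48 tested members the CPM values of the groups did not overlap, against 81.9% of all tested genes. Less transcript per cell and fewer cells carrying it cannot be told apart in these bulk samples.

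**Figure D1:**
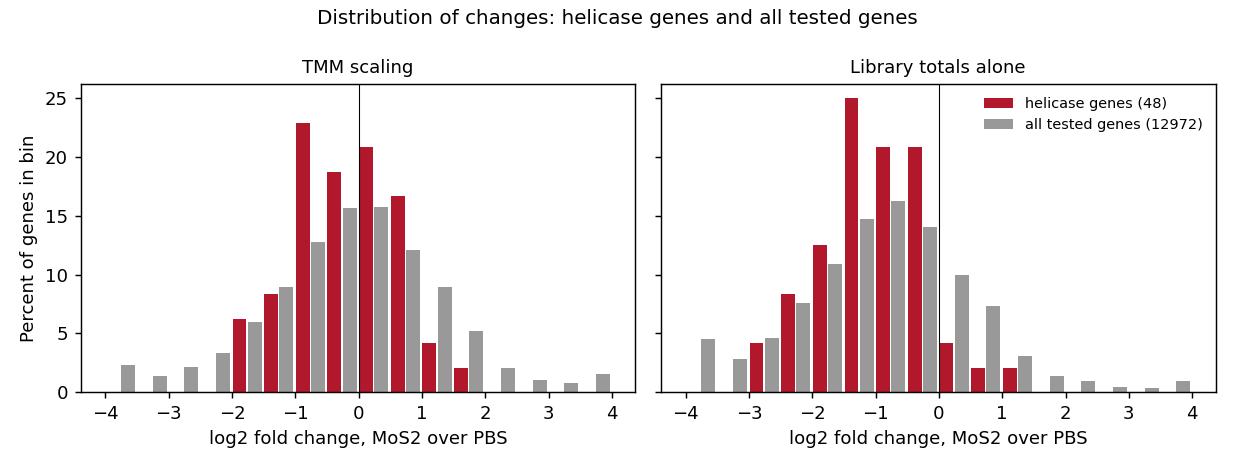
Percent of genes (y axis) in bins of log2 fold change, MoS2 over PBS (x axis, log2), for 48 tested helicase genes and all 12972 tested genes. The left panel uses TMM scaling, where members fall on both sides of 0, and the right panel uses library totals alone, where 44 members lie below 0. The end bins also hold genes beyond the axis.

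Of the 42 called members, 21 kept the same call in 3 fits: TMM scaling, library totals alone, and a fit in which the genome-wide trend of fold change with exon length and GC content was removed. Ddx20, Ddx47 and Ddx50 were higher in all 3 fits, which is 6.25% of tested members against 17.6% of all tested genes. The 18 members lower in all 3 fits were 37.5% of tested members, against 34.5% of all tested genes. They were Ddx3x, Ddx5, Ddx6, Ddx10, Ddx17, Ddx28, Ddx42, Ddx43, Ddx51, Ddx52, Ddx55, Ddx56, Ddx59, Dhx8, Dhx9, Dhx33, Dhx37 and Dhx57. With the trend removed 24 members were higher and 18 lower, with a median of 0.19 for members and 0.10 for all tested genes. In the same fit 80.4% of all genes tested were called, 43.8% higher and 36.6% lower. Tested members had a median exon length of 5162 bases, against 4072 bases over all tested genes.

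**Figure D2:**
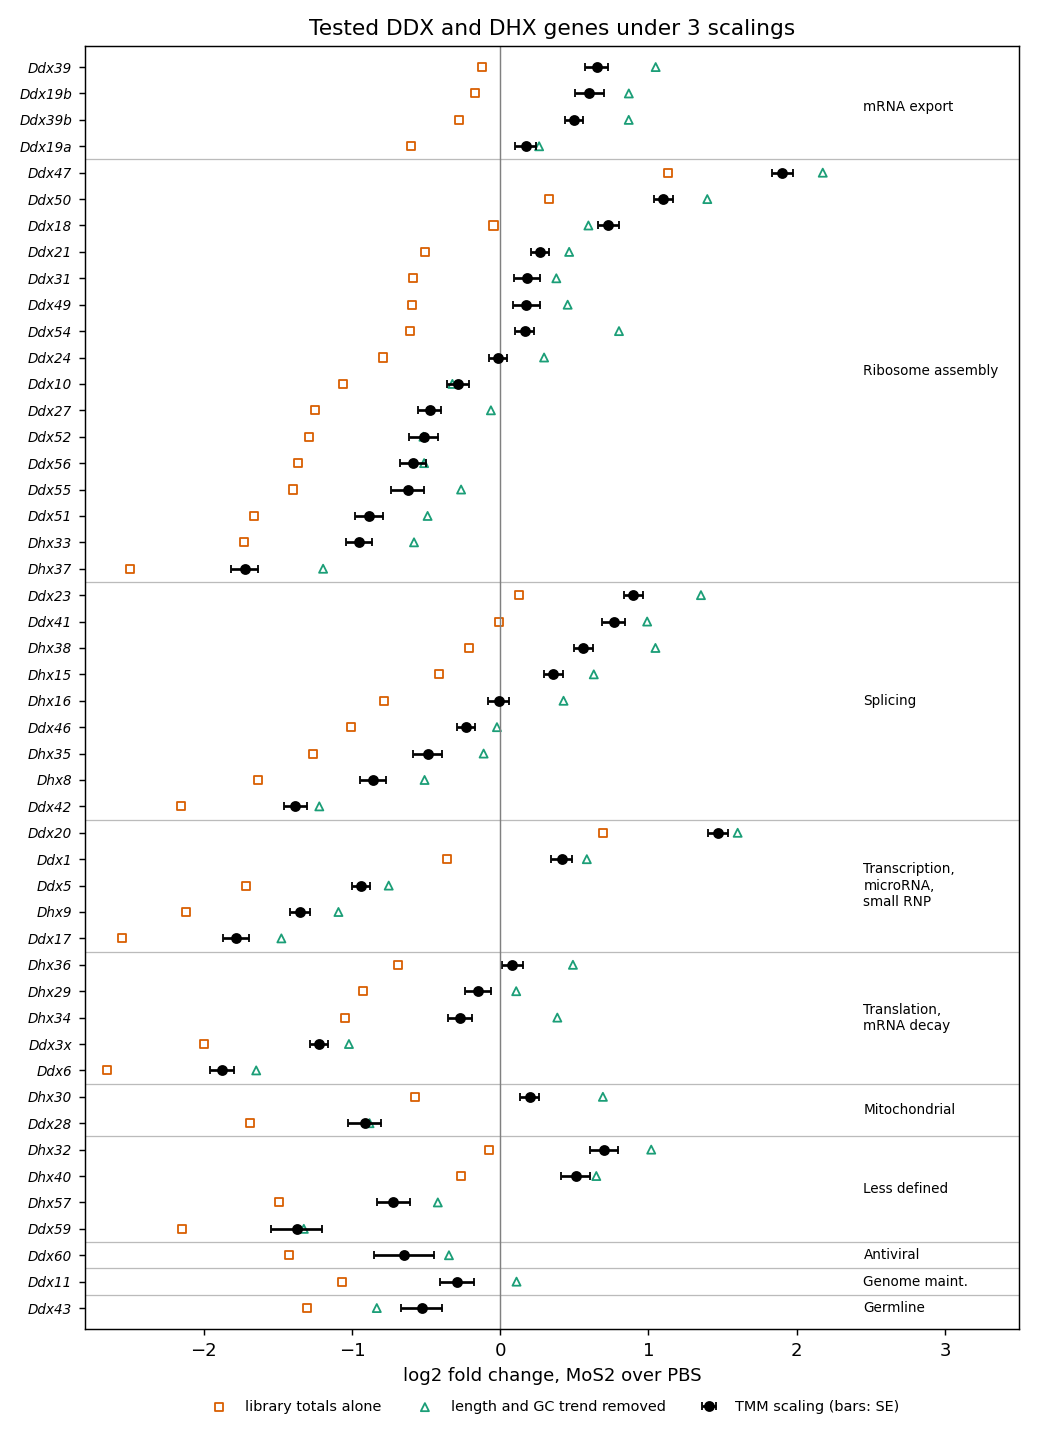
Log2 fold change, MoS2 over PBS (x axis, log2), of each of the 48 tested helicase genes (rows), with TMM scaling, library totals alone, and the length and GC trend removed. Ddx47, Ddx20 and Ddx50 lie above 0 in each fit, whereas 17 members that are above 0 with TMM scaling lie below 0 with library totals.

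Ribosome assembly was the largest role, with 16 members that process pre-rRNA or remodel the growing subunits in the nucleolus. With TMM scaling 5 rose, 8 fell and 3 did not pass the test, with a median of -0.15. With library totals 2 were higher and 13 lower. With the length and GC trend removed 8 were higher and 7 lower, with a median of 0.12. Counts of this and the following roles stand beside 38.3% of all tested genes higher and 42.4% lower with TMM scaling. With library totals these shares were 18.0% and 67.7%, and with the trend removed 43.8% and 36.6%. Ddx47, the relative of a yeast helicase needed for early cleavage of pre-rRNA, had the highest fold change of all members in each of the 3 fits. It had 182, 188 and 206 CPM in MoS2 libraries, against 53.3, 49.99 and 50.6 CPM in PBS libraries. Every MoS2 library stood well above every PBS library, and Ddx47 also had more raw counts in each of them. Its log2 fold change was 1.90 ± 0.07 (SE; edgeR adjusted p = 2.0e-11), and 1.13 with library totals. The gene lies on chromosome 6, from 135011612 to 135023776 on the plus strand (GRCm38).

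Ddx50, a nucleolar paralog of Ddx21, had 164, 172 and 171 CPM in MoS2 libraries, against 82.0, 77.1 and 77.0 CPM in PBS libraries. The groups were far apart, with little spread within either. Its log2 fold change was 1.10 ± 0.06 (edgeR adjusted p = 1.3e-09), and 0.33 with library totals. Ddx18, whose yeast relative Has1 acts in assembly of both subunits, had 118, 115 and 121 CPM in MoS2 libraries, against 77.1, 70.7 and 65.8 CPM in PBS libraries. Its MoS2 values were all higher with TMM scaling, at 0.73 ± 0.07 on the log2 scale (edgeR adjusted p = 3.9e-07), but the value was -0.05 with library totals.

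Dhx37, which releases the U3 small nucleolar RNA from small-subunit precursors, ran the other way. It had 14.1, 16.7 and 14.8 CPM in MoS2 libraries, against 51.0, 50.9 and 48.2 CPM in PBS libraries. All MoS2 libraries were far below all PBS libraries, at -1.72 ± 0.09 on the log2 scale (edgeR adjusted p = 5.9e-10) and at -2.49 with library totals. Falls in the same role, as log2 fold changes with TMM scaling, were -0.95 for Dhx33, a promoter of rRNA synthesis, -0.88 for Ddx51, -0.62 for Ddx55, -0.59 for Ddx56, -0.52 for Ddx52, -0.48 for Ddx27 and -0.28 for Ddx10. With library totals they ran between -1.73 for Dhx33 and -1.06 for Ddx10. Ddx27 was no longer called once the length and GC trend was removed (-0.06, edgeR adjusted p = 0.45).

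Ddx21, which acts in rRNA transcription and processing, had 320.3, 310.0 and 329.5 CPM in MoS2 libraries, against 261, 268 and 268 CPM in PBS libraries. The groups were close but did not overlap with TMM scaling, at 0.27 ± 0.06 on the log2 scale (edgeR adjusted p = 7.4e-04), and the value was -0.50 with library totals. Ddx54 rose by 0.17 (edgeR adjusted p = 0.026) but was at -0.61 with library totals. Its call was lost without MoS2 replicate 1 (0.16, adjusted p = 0.079) or without PBS replicate 3 (0.13, adjusted p = 0.12). In addition, 14.2% of its exon bases lie in an antisense gene. Ddx31, at 0.18 (adjusted p = 0.068), Ddx49, at 0.18 (adjusted p = 0.080), and Ddx24, at -0.01 (adjusted p = 0.84), did not pass edgeR's test. Ddx31 passed without MoS2 replicate 3 (0.23, adjusted p = 0.043), and Ddx49 passed without PBS replicate 2 (0.24, adjusted p = 0.043). Of the exon bases of Ddx49, 29.9% also belong to Homer3 on the other strand, so its counts are uncertain.

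The 9 splicing members split evenly with TMM scaling: 4 rose, 4 fell and 1 did not pass the test, with a median of -0.01. With library totals none was higher and 7 were lower. With the length and GC trend removed 5 were higher and 2 lower, with a median of 0.43. Ddx23, the relative of yeast Prp28 that helps swap U1 for U6 at the 5′ splice site, had 185, 174 and 185 CPM in MoS2 libraries, against 98.4, 100.4 and 93.6 CPM in PBS libraries. Its MoS2 libraries lay clearly above the PBS libraries with TMM scaling. The log2 fold change was 0.90 ± 0.06 (edgeR adjusted p = 1.1e-08), and 0.12 with library totals, where the call was lost. Ddx41, a spliceosome component also described as a DNA sensor, had 116, 118 and 126 CPM in MoS2 libraries, against 78.4, 66.5 and 67.1 CPM in PBS libraries. The TMM-scaled groups did not overlap, at 0.76 ± 0.08 (edgeR adjusted p = 5.1e-07), but the value was -0.01 with library totals. Of its exon bases, 17.4% lie in an antisense gene that had 0 counts.

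Ddx42, which joins the SF3B complex before the branch site is bound, fell in this role. It had 35.7, 33.1 and 30.1 CPM in MoS2 libraries, against 83.3, 87.3 and 86.9 CPM in PBS libraries. The MoS2 libraries were low throughout, at -1.38 ± 0.08 on the log2 scale (edgeR adjusted p = 1.3e-09) and -2.15 with library totals. Dhx8, which releases spliced mRNA from the spliceosome, fell by 0.86 on the log2 scale, Dhx35 by 0.49 and Ddx46 by 0.23. The calls for Dhx35 (-0.11, edgeR adjusted p = 0.30) and Ddx46 (-0.02, adjusted p = 0.73) were lost with the length and GC trend removed. That fit also shifted all tested genes by a median of 0.215. Dhx38, which acts at the second splicing step, rose by 0.56 and Dhx15, which takes the spent spliceosome apart, by 0.36, but both were negative with library totals, at -0.21 and -0.41. Dhx16, which activates the assembled spliceosome, stood at -0.01 and did not pass edgeR's test (adjusted p = 0.90).

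All 4 mRNA export members rose with TMM scaling, with a median of 0.55, whereas with library totals none was higher and 2 were lower. Ddx39b (UAP56), which loads export factors onto mRNA, had 298, 306 and 312 CPM in MoS2 libraries, against 220.0, 217 and 212 CPM in PBS libraries. Its groups were well separated with TMM scaling, at 0.50 ± 0.06 (edgeR adjusted p = 2.3e-06), but the value was -0.27 with library totals. Ddx39, its close relative, had 97.5, 102 and 105 CPM in MoS2 libraries, against 72.0, 62.7 and 59.8 CPM in PBS libraries. The order was the same, at 0.65 ± 0.08 (edgeR adjusted p = 3.2e-06), and it turned to -0.12 with library totals. Ddx39 shares 17.4% of its exon bases with Adgre5 on the other strand, and the counts of Adgre5 summed to 4 in MoS2 libraries and 245 in PBS libraries; their part in the value for Ddx39 was not tested.

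Ddx19a and Ddx19b release export factors from mRNA at the cytoplasmic face of the nuclear pore. Ddx19b had 47.99, 40.5 and 50.8 CPM in MoS2 libraries, against 30.0, 33.0 and 28.9 CPM in PBS libraries. Ddx19a had 54.6, 53.1 and 53.8 CPM in MoS2 libraries, against 49.1, 45.7 and 48.4 CPM in PBS libraries. Both were higher in each MoS2 library with TMM scaling, though the margin for Ddx19a was narrow. Ddx19b changed by 0.60 ± 0.10 (edgeR adjusted p = 4.8e-05) and by -0.17 with library totals. The value for Ddx19a was 0.17 ± 0.07 (edgeR adjusted p = 0.035), and -0.60 with library totals. Leaving out MoS2 replicate 1, 2 or 3, or PBS replicate 2 or 3, ended the call for Ddx19a (0.13 to 0.19, edgeR adjusted p = 0.051 to 0.16).

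In translation and mRNA decay no member rose, 3 of 5 fell and 2 did not pass the test, with a median of -0.27, and with library totals all 5 were lower. Removing the length and GC trend gave 2 higher and 2 lower instead. Ddx6, the core helicase of P-bodies that links translational repression to decapping, had 71.5, 69.2 and 67.3 CPM in MoS2 libraries. In PBS libraries it had 221, 275 and 267 CPM. The MoS2 values were close together and all far below the PBS values. Its log2 fold change of -1.88 ± 0.08 (edgeR adjusted p = 1.3e-10) was the largest fall among members, and it was -2.65 with library totals. The gene lies on chromosome 9, from 44604892 to 44640731 on the plus strand (GRCm38).

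Ddx3x, which helps ribosomes through structured mRNA leaders, had 119, 118 and 118 CPM in MoS2 libraries, against 276, 266 and 285 CPM in PBS libraries. The MoS2 libraries were almost equal to each other and lay far below the PBS libraries. The log2 fold change was -1.22 ± 0.06 (edgeR adjusted p = 3.2e-10), and -1.99 with library totals. Dhx34, a factor of nonsense-mediated decay, fell by 0.27 on the log2 scale (edgeR adjusted p = 0.0063) but was higher, at 0.39, once the length and GC trend was removed. Dhx36, which unfolds G-quadruplexes, stood at 0.08 (adjusted p = 0.30) and Dhx29, which aids scanning on structured leaders, at -0.15 (adjusted p = 0.12), and neither passed edgeR's test.

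**Figure D3:**
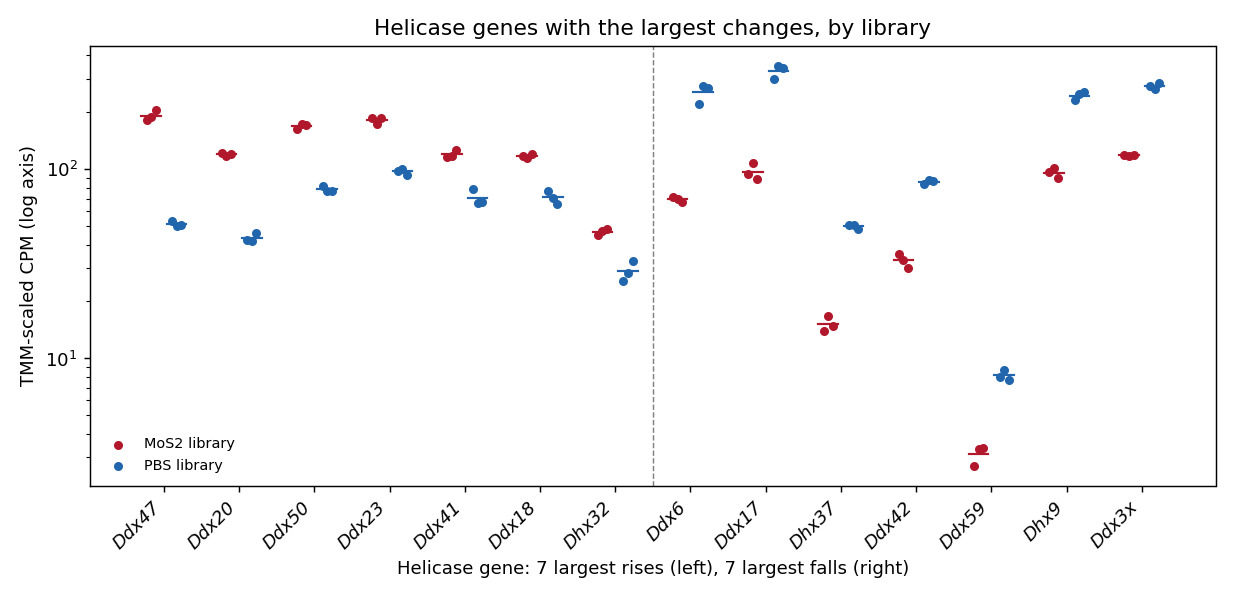
Level (y axis, CPM with TMM factors, log axis) of the 7 members with the largest rises and the 7 with the largest falls (x axis) in each MoS2 and PBS library, with dashes for group means. The groups do not overlap for any of the 14 genes; with library totals, the mean changes of Ddx41, Ddx18 and Dhx32 turn slightly negative.

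The members that work in transcription, microRNA processing and assembly of small ribonucleoproteins (RNPs) held large changes in both directions: 2 rose and 3 fell with TMM scaling, and 1 was higher and 4 lower with library totals. Ddx20 (Gemin3), a subunit of the SMN complex that loads Sm proteins onto small nuclear RNAs, had 122, 118 and 121 CPM in MoS2 libraries, against 42.3, 41.8 and 46.1 CPM in PBS libraries. Every MoS2 library was far above every PBS library. Its log2 fold change was 1.47 ± 0.07 (edgeR adjusted p = 1.8e-10), and 0.69 with library totals. Ddx1, a subunit of the tRNA ligase complex, rose by 0.41 but was at -0.36 with library totals.

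Ddx5 (p68) and Ddx17 (p72) are coregulators of transcription and cofactors of the Drosha complex that cuts primary microRNAs. Ddx17 had 94.0, 107 and 88.2 CPM in MoS2 libraries, against 299, 351 and 344 CPM in PBS libraries. Ddx5 had 358, 349 and 353 CPM in MoS2 libraries, against 701, 650 and 681 CPM in PBS libraries. Both were low in each MoS2 library. Ddx17 changed by -1.78 ± 0.09 (edgeR adjusted p = 2.5e-10) and by -2.55 with library totals. For Ddx5 the log2 fold change was -0.94 ± 0.06 (edgeR adjusted p = 3.6e-09), and -1.71 with library totals.

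Dhx9 (RNA helicase A), which unwinds long duplexes and RNA-DNA hybrids in the nucleus, had 96.7, 101 and 90.3 CPM in MoS2 libraries, against 231, 248 and 254 CPM in PBS libraries. Its MoS2 libraries were again the low ones, without overlap. The log2 fold change was -1.35 ± 0.07 (edgeR adjusted p = 4.0e-10), and -2.12 with library totals.

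The remaining roles held 1 to 4 members each. In mitochondria, Ddx28, which acts in assembly of the mitochondrial ribosome, fell by 0.91 on the log2 scale, while Dhx30 of the mitochondrial RNA granules rose by 0.20 with TMM scaling and was at -0.57 with library totals. Ddx11, a DNA helicase of sister chromatid cohesion, fell by 0.29 (edgeR adjusted p = 0.028). That call was lost without MoS2 replicate 1 (-0.18, adjusted p = 0.15) or without PBS replicate 2 (-0.29, adjusted p = 0.061), and the value was 0.11 with the length and GC trend removed. Ddx60, an interferon-induced antiviral factor, fell by 0.65 (edgeR adjusted p = 0.0096), but not with the trend removed (-0.35, adjusted p = 0.13).

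Among the helicases known from germ cells, Ddx43 had 9.98, 10.9 and 10.2 CPM in MoS2 libraries, against 15.4, 12.6 and 17.1 CPM in PBS libraries. The MoS2 libraries were all lower, at a log2 fold change of -0.53, and 15.9% of its exon bases lie in an antisense gene. Ddx4 (Vasa), with 6 counts in MoS2 libraries and 10 in PBS libraries, and Ddx25, with 4 counts in each group, were too low to test.

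The 4 members of less defined role moved both ways. Dhx32, a DEAH-box relative with no settled substrate, had 44.96, 47.3 and 48.4 CPM in MoS2 libraries, against 25.6, 28.2 and 32.9 CPM in PBS libraries. Its groups stood apart with TMM scaling, at 0.70 ± 0.10 (edgeR adjusted p = 1.1e-05), but the value was -0.07 with library totals. Dhx32 shares 4.89% of its exon bases with Bccip on the other strand. Ddx59, a zinc finger helicase linked to limb and face development, had 2.72, 3.32 and 3.37 CPM in MoS2 libraries, against 7.98, 8.69 and 7.73 CPM in PBS libraries. This low-level gene was lower in each MoS2 library, at -1.37 ± 0.17 (edgeR adjusted p = 4.7e-06) and -2.14 with library totals. Dhx40 rose by 0.51 but was at -0.26 with library totals, and Dhx57 fell by 0.72.

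Together the members took a smaller share of the library after MoS2, by about as much as the median gene fell with library totals. The 50 genes held 0.306, 0.314 and 0.301% of all counts in MoS2 libraries, against 0.581, 0.585 and 0.590% in PBS libraries. Each MoS2 library was thus well below each PBS library, at 0.524 times the PBS mean. The median of all tested genes with library totals corresponds to 0.555 times. The exact two-sided permutation test gave p = 0.1, the smallest value that 3 against 3 libraries can give. The share on translation and decay members fell furthest among the larger roles, to 0.275 times the PBS mean, while the share on export members was 0.827 times the PBS mean. Most PBS counts of translation and decay were on Ddx3x (18857) and Ddx6 (17384), against 3891 on Dhx36, 2609 on Dhx34 and 2250 on Dhx29. By the median log2 fold change with library totals, translation and decay stood at -1.05. The role of transcription, microRNA and small RNPs was lower, at -1.71. Raw counts were lower in every MoS2 library than in every PBS library for 39 members, 81.3% of those tested, and higher for Ddx20, Ddx47 and Ddx50, or 6.25%. Among all tested genes the same held for 68.2% (lower) and 16.2% (higher).

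Within the family, the make-up of the counts also differed. Ddx5 made up 8.80% of helicase counts in MoS2 libraries and 15.1% in PBS libraries. Ddx17 made up 2.40% in MoS2 libraries and 7.39% in PBS libraries, and Ddx6 made up 1.73% in MoS2 libraries and 5.67% in PBS libraries. Ddx47, by contrast, made up 4.78% in MoS2 libraries and 1.14% in PBS libraries, and Ddx20 made up 2.99% in MoS2 libraries and 0.968% in PBS libraries. These shares do not depend on how libraries are scaled.

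Ranked in TPM, the counts per base of exon scaled to a sum of 1000000 in each library, the most abundant members in MoS2 cells were Ddx39b, at 146 ± 6.01 TPM, Ddx21, at 112 ± 2.01 TPM, and Ddx5, at 111 ± 4.89 TPM (SD, n = 3). The difference between Ddx21 and Ddx5 was within their spread. In PBS cells the order began with Ddx5, at 499 ± 21.7 TPM, Ddx39b, at 243 ± 1.82 TPM, and Ddx3x, at 223 ± 11.8 TPM, with Ddx21 within the spread of Ddx3x at 218 ± 7.22 TPM. Ddx47 ranked 9th in MoS2 cells and 32nd in PBS cells, whereas Ddx6 ranked 26th in MoS2 cells and 6th in PBS cells. Ddx17 ranked 21st in MoS2 cells and 5th in PBS cells. TPM values hold no TMM factors, so those of Ddx39b and Ddx21 are lower in MoS2 cells, whereas both genes rose with TMM scaling.

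**Figure D4:**
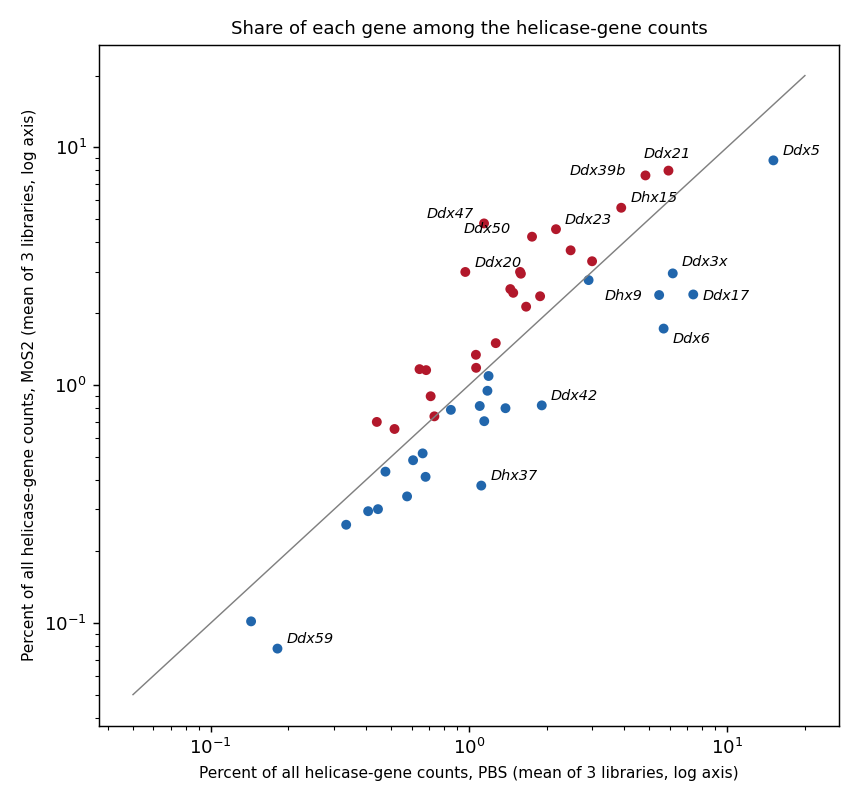
Each of the 48 tested members by its mean percent of all helicase-gene counts in MoS2 libraries (y axis, log) and in PBS libraries (x axis, log). The line marks equal shares. Red points above it are members whose own share is larger in MoS2 than in PBS libraries. Blue points below it are members whose own share is smaller in MoS2 libraries. Ddx47 lies far above, at 4.78% in MoS2 and 1.14% in PBS libraries, and Ddx6 far below, at 1.73% in MoS2 and 5.67% in PBS libraries.

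Close relatives within the family were compared by the ratio of their counts within each library, which needs no scaling. The sequences below are the 48 coding bases around the ATP-binding motif, on the plus sense of GENCODE M21 transcripts (GRCm38), with the 4 codons of the motif in capitals. They show how the genes of each pair differ at this motif alone. Identity over the coding sequence and shared stretches of the length of a read are given after them. Ddx5 lies on chromosome 11, Ddx17 on chromosome 15, Ddx21 and Ddx50 on chromosome 10, Ddx39 on chromosome 8, Ddx39b on chromosome 17, and Ddx19a and Ddx19b on chromosome 8.
Ddx5: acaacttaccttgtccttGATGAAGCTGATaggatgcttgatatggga
Ddx17: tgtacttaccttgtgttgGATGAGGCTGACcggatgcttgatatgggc
Ddx21: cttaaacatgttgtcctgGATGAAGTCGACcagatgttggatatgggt
Ddx50: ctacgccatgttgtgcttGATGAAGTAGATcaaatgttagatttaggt
Ddx39: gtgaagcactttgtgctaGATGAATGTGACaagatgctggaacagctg
Ddx39b: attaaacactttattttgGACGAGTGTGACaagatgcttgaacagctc
Ddx19a: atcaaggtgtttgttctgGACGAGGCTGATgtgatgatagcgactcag
Ddx19b: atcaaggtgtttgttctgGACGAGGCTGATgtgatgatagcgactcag
The windows differ at 10 bases between Ddx5 and Ddx17, at 12 between Ddx21 and Ddx50, at 11 between Ddx39 and Ddx39b, and at 0 between Ddx19a and Ddx19b. Over the coding sequence, identity was 65.3% for Ddx5 and Ddx17, 59.7% for Ddx21 and Ddx50, 71.8% for Ddx39 and Ddx39b, and 90.2% for Ddx19a and Ddx19b. Only Ddx19a and Ddx19b shared whole stretches of 150 bases, the length of a read, among the 4 pairs. These were 15.4% of such windows in Ddx19a and 5.60% in Ddx19b, so their split of reads is uncertain.

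The balance of Ddx5 over Ddx17 moved toward Ddx5 in MoS2 cells. The log2 ratio was 1.93, 1.70 and 2.0 in MoS2 libraries, against 1.23, 0.89 and 0.98 in PBS libraries. No MoS2 ratio reached down to the PBS ratios, and the means differed by 0.84. The balance of Ddx21 over Ddx50 moved toward Ddx50: the log2 ratio was 0.97, 0.85 and 0.95 in MoS2 libraries, against 1.67, 1.80 and 1.80 in PBS libraries. Here all MoS2 ratios were lower, by 0.83 on average. These 2 genes are neighbours on chromosome 10, 13.6 kb apart on the same strand.

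The log2 ratio of Ddx19a over Ddx19b was 0.19, 0.39 and 0.08 in MoS2 libraries, against 0.71, 0.47 and 0.75 in PBS libraries. The groups did not overlap but came close, with a difference of -0.42. For Ddx39 over Ddx39b the log2 ratio was -1.61, -1.58 and -1.57 in MoS2 libraries, against -1.61, -1.79 and -1.83 in PBS libraries. These groups overlapped, with a difference of 0.16. The exact two-sided permutation p was 0.1 for each of the first 3 pairs and 0.2 for Ddx39 over Ddx39b, and 0.133 and 0.2 after Benjamini-Hochberg adjustment over the 4 pairs. No p below 0.1 is possible with 3 against 3 libraries.

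**Figure D5:**
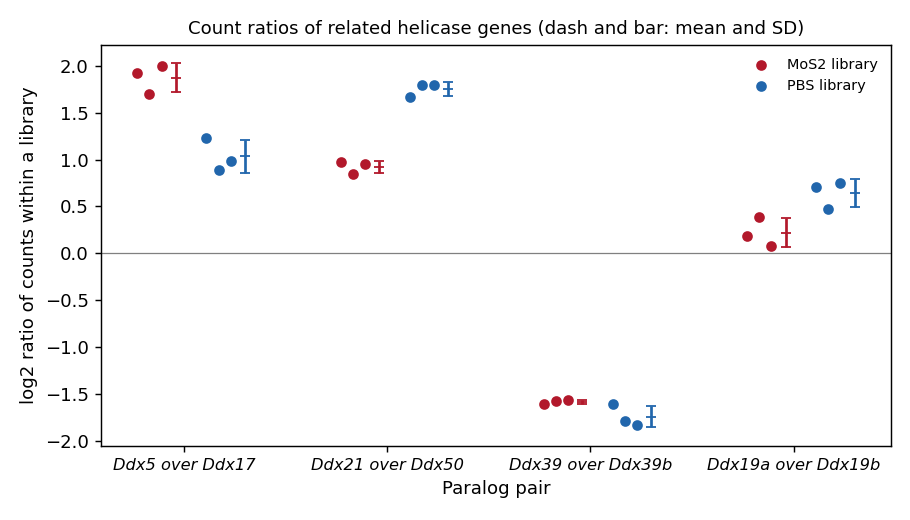
Log2 ratio of the counts of 4 pairs of related helicases (y axis, log2) in each MoS2 and PBS library (x axis, pairs), with bars for the mean and SD of 3 libraries. The ratio of Ddx5 over Ddx17 is higher in all MoS2 libraries, that of Ddx21 over Ddx50 and of Ddx19a over Ddx19b lower, and that of Ddx39 over Ddx39b overlaps.

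RNA helicases outside the DDX and DHX names were counted beside the members. Of 21 such genes, 19 were tested. With TMM scaling 5 rose (26.3%), 11 fell (57.9%) and 3 did not pass edgeR's test, with a median of -0.33. With library totals 3 were higher and 16 lower. The shares of all tested genes were 38.3% higher and 42.4% lower with TMM scaling, and 18.0% and 67.7% with library totals. Znfx1, an antiviral helicase, was at -2.19, and at -2.96 with library totals. Mov10, which inhibits retroelements, was at 1.31, and at 0.53 with library totals. Eif4a1 and Eif4a2, which open mRNA leaders for the ribosome, were at 1.09 and 1.22, and at 0.32 and 0.45 with library totals.

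Partners of single members did not all move as the member did. The counts in these lists, and in those below, stand beside 38.3% of all tested genes higher and 42.4% lower with TMM scaling. With library totals 18.0% of all tested genes were higher and 67.7% lower. Of 7 tested SMN complex partners of Ddx20, 4 rose and 2 fell with TMM scaling, and 1 was higher and 4 lower with library totals. Strap was at 0.95 and Smn1 at 0.93, but at 0.18 and 0.16 with library totals, while Gemin7 was at -1.02, and at -1.80 with library totals. Of 11 TREX partners of Ddx39b, which couple export to transcription, 7 rose and 2 fell with TMM scaling, and 1 was higher and 8 lower with library totals. Sarnp was at 1.10, Thoc6 at 0.77 and Thoc3 at -1.39, but with library totals at 0.33, -0.0008 and -2.16.

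Of 10 partners of Ddx6 in mRNA repression, 4 rose and 4 fell with TMM scaling, whereas none was higher and all 10 were lower with library totals. Cnot1, the scaffold of the deadenylase, was at -0.67, Dcp1b, a decapping cofactor, at -0.83, and Lsm14a, a P-body protein, at 0.46. With library totals these were -1.44, -1.61 and -0.32. The 3 nuclear pore partners of Ddx19a and Ddx19b comprised Nup42 (Nupl2 in the annotation), which fell by 1.83, Nup214, which fell by 0.54, and Gle1, at 0.12, which did not pass the test with TMM scaling. With library totals all 3 were lower, at -2.60, -1.31 and -0.65. Of 4 tRNA ligase partners of Ddx1, Rtraf rose by 1.34, also with library totals, Fam98b fell by 0.69 and Zbtb8os fell by 0.78, and Rtcb, at 0.16, did not pass the test. With library totals Rtraf was at 0.56, Fam98b at -1.46, Zbtb8os at -1.55 and Rtcb at -0.61.

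G-patch proteins include the activators of DEAH-box helicases such as Dhx15. Of 16 tested, 5 rose and 9 fell with TMM scaling, and with library totals none was higher and 13 were lower. Rbm5, a splicing regulator, was at -1.78, Gpatch4, a nucleolar protein, at -1.61, and Gpatch8 at -1.22, and with library totals they were at -2.55, -2.39 and -1.99.

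Promoters were read from RefSeq (GRCm38.p6), from 250 bases before to 50 bases after each start, for 45 members with 56 promoters. The letters CCGGAAG, a core recognised by ETS factors, stood on either strand in 37.5% of member promoters, in 18.2% of the promoters of all tested genes and in 8.86% of all 32851 promoters. They stood in 30.0% of the promoters of members that rose with TMM scaling and in 40.7% of those of members that fell. CCAAT stood in 46.4% of member promoters and 38.1% of those of tested genes, the E-box CACGTG in 12.5% and 10.1%, the cAMP response element TGACGTCA in 10.7% and 3.20%, TATAAA in 8.93% and 7.0%, and the motif of NRF1 in 5.36% and 2.15%. The member promoters include those of Ddx4 and Ddx25, which were not tested, so these shares and those of tested genes cover unlike sets. Both hold CCAAT and an E-box, and they are among the 7 of 56 member promoters with an E-box. The NRF1 motif stood in 0 of 20 promoters of members that rose (0%) and in 3 of 27 of members that fell (11.1%). Those 3 belong to Dhx34 and Dhx37, and counts this small do not allow a comparison. Overlapping promoters of Ddx49, and of Dhx34, hold the same sites and were counted separately. This enters the shares of the cAMP response element, NRF1 and ETS letters. Median GC content was 60.3% in member promoters, 60.7% in promoters of tested genes and 52.7% in all promoters. The promoters of Ddx47 (chr6:135011362-135011661, plus strand) and Ddx17 (chr15:79546692-79546991, minus strand) are shown as one of a gene that rose and one of a gene that fell, both with the ETS letters in capitals. They were chosen after the values were seen. Ddx17 has another promoter (chr15:79532868-79533167, minus strand), not shown, which lacks the ETS letters.
Ddx47: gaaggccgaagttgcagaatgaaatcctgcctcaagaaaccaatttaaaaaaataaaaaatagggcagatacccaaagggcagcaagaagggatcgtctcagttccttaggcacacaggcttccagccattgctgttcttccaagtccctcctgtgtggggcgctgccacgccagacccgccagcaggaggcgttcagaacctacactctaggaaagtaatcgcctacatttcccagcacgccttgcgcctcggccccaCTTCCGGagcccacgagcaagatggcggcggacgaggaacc
Ddx17: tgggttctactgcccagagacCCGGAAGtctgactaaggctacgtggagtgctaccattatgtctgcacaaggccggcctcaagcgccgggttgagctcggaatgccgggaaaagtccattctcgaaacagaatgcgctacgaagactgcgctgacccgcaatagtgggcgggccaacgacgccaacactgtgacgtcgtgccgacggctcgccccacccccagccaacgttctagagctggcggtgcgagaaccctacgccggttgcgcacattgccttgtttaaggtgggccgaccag
The ETS letters lie near the start site in Ddx47, on the opposite strand, and far upstream of it in Ddx17. A match describes these letters only, not binding.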

How the data were processed

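RNA of 6 RAW264.7 samples was extracted with TRIzol and made into paired-end libraries with a NEBNext Ultra kit, per the labels' protocols. Tools named in the submitters' processing notes are fastp 0.20.0, HISAT2 2.1.0 and featureCounts 1.6.1. The authors deposited raw counts of reads for each gene, with no normalization. The notes name the human build GRCh38, but identifiers and coordinates are those of mouse GRCm38: 54349 of 55401 occur in GENCODE M21 with the same version and coordinates. The sources used here give neither the strand setting nor the treatment of multimapping reads, so counts of overlapping genes and close copies are uncertain.

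Counts were filtered with filterByExpr and fitted with edgeR 4.0.16 (R 4.3.3) on the 6 libraries, with TMM factors (0.743 to 0.783 for MoS2, 1.305 to 1.311 for PBS) and the group as the sole term. Calls needed an adjusted p under 0.05 (Benjamini-Hochberg, over all 12972 genes tested). Standard errors were the log2 fold change divided by the square root of the F statistic. Pair ratios used a pseudocount of 0.5. The fit was tested on simulated counts with few genes changed, equally in both directions, so that test does not address the choice of scaling. Alternatives included limma 3.58.1 (voom), DESeq2 1.42.0, other scalings and filters, and a spline offset for exon length and GC content.

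Values per library are given for 7 members with the highest and 7 with the lowest fold changes, of those called whose mean reached 5 CPM, and for both genes of each of 4 pairs; other members and the leading genes of each partner list have fold changes alone. Ddx43 was also given in full, chosen after its values were seen. The members and all lists were chosen with earlier results of these data known. The value of 1 further gene of these lists is not reported here.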

Additional observations from a re-analysis of the deposited data

How the results depend on the processing

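Direction and call held for 20 of the 48 tested members under all 18 alternatives, while 22 members turned sign under at least 1. Under library totals, 2334 genes were called higher and 8786 lower, the members' counts were 3 and 39, and their median was -0.96. The members' median was -0.32 with upper-quartile factors, -0.27 with no low-count filter, and 0.19, of opposite sign, with the length and GC trend removed. The last of these fits shifted all tested genes by a median of 0.215. Library totals turned 17 members to negative values: Ddx41 -0.0089, Ddx18 -0.045, Dhx32 -0.0741, Ddx39 -0.12, Ddx19b -0.17, Dhx38 -0.21, Dhx40 -0.26, Ddx39b -0.27, Ddx1 -0.36, Dhx15 -0.41, Ddx21 -0.50, Dhx30 -0.57, Ddx31 -0.59, Ddx49 -0.60, Ddx19a -0.60, Ddx54 -0.61 and Dhx36 -0.69. Dhx16 and Ddx24, which did not pass the test, turned to 0.031 and 0.0268 with RLE factors and with DESeq2, to 0.0352 and 0.0312 with protein-coding genes alone, and to 0.43 and 0.30 with the length and GC trend removed. That fit also turned Dhx29 to 0.11, Dhx34 to 0.39 and Ddx11 to 0.11, and upper-quartile factors turned Dhx36 to -0.0484. Leaving out each replicate gave -0.0508 to 0.0179 for Dhx16, highest without MoS2 replicate 2, and -0.0669 to 0.0044 for Ddx24, highest without PBS replicate 1. It also gave 4843 to 5070 genes higher and 5334 to 5564 lower, 16 to 18 members higher and 23 to 24 lower, and member medians of -0.23 to -0.15. The difference in summed share was then -0.282 to -0.276 percentage points, and -0.212 points with the 100 most abundant genes left out. Pair ratio differences were 0.77 to 0.94 for Ddx5 over Ddx17, -0.88 to -0.80 for Ddx21 over Ddx50, 0.11 to 0.22 for Ddx39 over Ddx39b and -0.51 to -0.35 for Ddx19a over Ddx19b. The causes were not tested. Same-numbered libraries of the groups did not deviate together (correlations of -0.0203, -0.0107 and -0.139), and no library correlated best with its own number. With so few libraries this check cannot show whether the numbers mark a shared culture or day. With the replicate number as a block, 4848 genes were higher and 5355 lower, 16 members were higher and 24 lower, and the calls for Ddx19a (edgeR adjusted p = 0.078) and Ddx54 (adjusted p = 0.072) were lost. Depth limits Ddx4 and Ddx25, with 10 counts or fewer in each group.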

Other observations

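Several members lie near each other on a chromosome. Ddx19a and Ddx19b are 5.39 kb apart on chromosome 8, and their log2 fold changes with TMM scaling were 0.17 and 0.60. Ddx41 and Ddx46 are 98.4 kb apart on chromosome 13, with opposite values of 0.76 and -0.23. Ddx42 and Ddx5, 531 kb apart on chromosome 11, were at -1.38 and -0.94. With library totals the rising members of these pairs were negative, at -0.60 for Ddx19a, -0.17 for Ddx19b and -0.01 for Ddx41. In all, 13 members share exon bases with another annotated gene, and for 5 of them, Ddx49, Ddx41, Ddx39, Ddx43 and Ddx54, the share exceeds 10% of their own exon bases.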
